A study of Mus musculus with 6 samples.

Results

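Granins and prohormone processing enzymes are the proteins that build the dense-core secretory granule and trim peptide precursors inside it. The 10 genes described here are Chga, Chgb, Scg2, Scg3, Scg5, Pcsk1n, Pcsk1, Pcsk2, Cpe and Pam, taken by symbol from 22869 genes with a symbol in the deposited table. All 10 had a mean of at least 1 FPKM (fragments per kilobase of transcript, relative to all fragments mapped) over the 6 libraries, the level required for testing, which 11642 genes reached. RNA came from the pituitaries of female mice, 6 to 8 weeks old and of a CD1 x C57BL/6 hybrid strain, with no treatment listed, whose cells were sorted by flow cytometry (FACS) into somatotropes, the growth hormone cells, and lactotropes, the prolactin cells. There were 3 libraries of each, numbered as biological replicates 1 to 3. The marker used for the sort, the genotype of the mice beyond the strain and the number of animals in a replicate are not given in the sources used here.

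Granins are acidic proteins that aggregate in the trans-Golgi network and help to load hormones into granules. Prohormone convertases then cut precursors after paired basic residues, a carboxypeptidase removes the exposed basic residues, and an amidating enzyme modifies peptides that end in glycine. Growth hormone and prolactin are stored in such granules but need no cleavage by prohormone convertases to become active, whereas corticotropes and melanotropes use the convertases to process pro-opiomelanocortin.

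The libraries differed by replicate number as well as by cell type. Deposited values of genes in general were higher in replicate 1. Its median-ratio scaling factors were 1.789 (somatotrope) and 1.787 (lactotrope), against 0.634 to 0.957 in the other libraries. Gh made up 9.95% to 27.45% of the FPKM sum in somatotropes and Prl 12.11% to 52.96% in lactotropes, and values as deposited are relative to such sums. In both replicate 1 libraries, small values of genes with a single exon were multiples of 1 fragment, from which depths of 28850000 (somatotrope 1) and 17350000 (lactotrope 1) mapped fragments followed. No depth could be recovered for the other 4. Lactotrope 3 listed 14.94% of tested genes at 0, against 0.23% to 2.95% elsewhere. Summed leukocyte markers (6 of 6 found, none at 0) ran from 247 FPKM in somatotrope 1 to 5266 FPKM in somatotrope 2, and from 689 FPKM in lactotrope 1 to 11125 FPKM in lactotrope 2. Summed erythroid markers (5 of 5 found, none at 0) ranged from 5.33 to 325 FPKM, except in replicate 3, where somatotropes had 4259 FPKM and lactotropes 3529 FPKM. Gh and Prl each lay higher in all 3 libraries of their own cell type. For Prl the margin was narrow, 25171 FPKM in lactotrope 2 against 24481 FPKM in somatotrope 3. Prl made up 3.38% to 11.32% of the sum in somatotropes, and Gh 0.94% to 3.3% in lactotropes. Ghrhr (somatotrope, listed at 0 in lactotrope 3), Drd2 and Angpt1 (lactotrope) were higher in their own cell type in every same-numbered pair. Pou1f1, counted with the somatotropes, was higher in lactotropes in every pair. It had 258, 34.6 and 66.7 FPKM in lactotropes 1 to 3, against 245, 21.0 and 19.9 FPKM. In bulk RNA of this kind, fewer cells of a type and less RNA per cell cannot be told apart.

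Across the 6 libraries the most abundant of the 10 transcripts per unit length were Chgb, Scg5, Cpe and Scg2. Chgb averaged 478 ± 488 FPKM (SD, n = 6), Scg5 361 ± 251 FPKM, Cpe 237 ± 119 FPKM and Scg2 185 ± 123 FPKM. Neighbours in that order did not differ beyond their spread, but these 4 genes filled the first 4 places in every one of the 6 libraries. Scg3 at 46.2 ± 39.9 FPKM, Chga at 41.9 ± 31.8 FPKM, Pcsk1n at 38.5 ± 24.5 FPKM, Pam at 26.8 ± 29.9 FPKM and Pcsk1 at 18.8 ± 20.8 FPKM followed, again within each other's spread. Pcsk2 was last in all 6 libraries at 1.58 ± 1.52 FPKM. Together the 10 genes made up 0.326% to 0.536% of the FPKM sum in somatotropes and 0.329% to 0.816% in lactotropes, ranges that overlap.

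**Figure D1:**
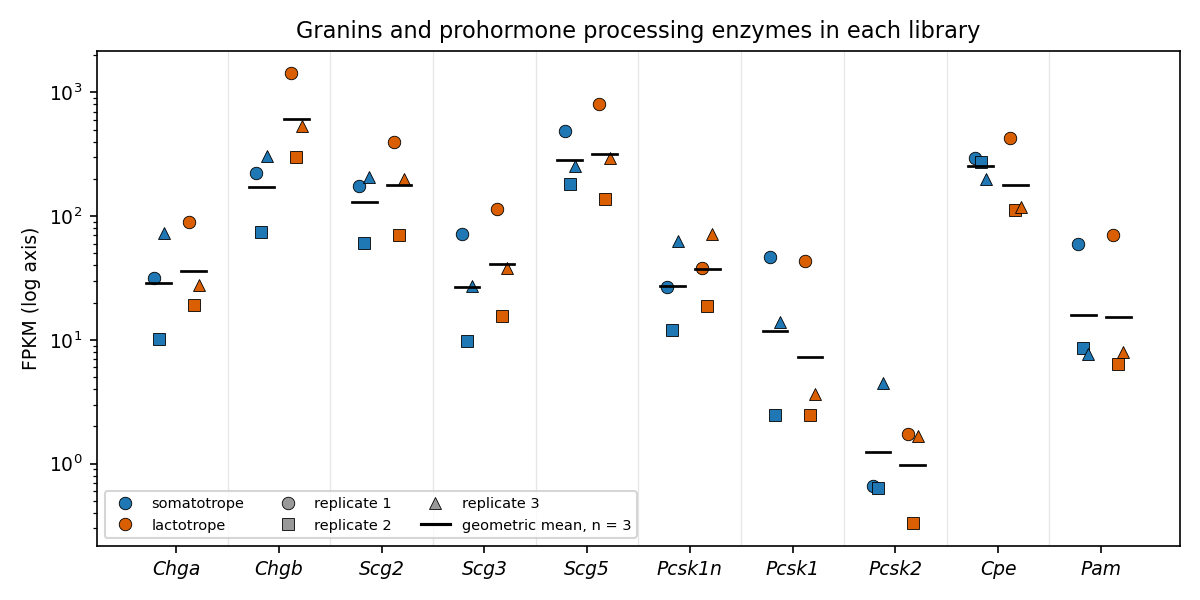
FPKM on a log axis for each of the 10 genes in each library, somatotropes in blue and lactotropes in orange, symbol shapes giving the replicate number and black lines the geometric means of 3 libraries. Chgb has the widest gap between the cell types, with lactotropes from 302 to 1426 FPKM and somatotropes from 75.1 to 307 FPKM, and Pcsk2 lies lowest.

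Chgb encodes chromogranin B, also called secretogranin 1, a granin stored in endocrine granules. Its position in the table, given in mm9, is chromosome 2, 132607014 to 132620808, plus strand. Somatotropes 1 to 3 had 222, 75.1 and 307 FPKM, and lactotropes 1 to 3 had 1426, 302 and 537 FPKM. Lactotropes were higher in every pair of same-numbered libraries, 6.41-fold in pair 1, 4.03-fold in pair 2 and 1.75-fold in pair 3, but the groups touched, since somatotrope 3 lay just above lactotrope 2. Among the 11642 tested genes Chgb ranked 7, 43 and 20 from the top in lactotropes 1 to 3 and 70, 266 and 30 in somatotropes 1 to 3. The log2 difference, which here is always that of log2(FPKM + 1) in somatotropes minus lactotropes, was -1.82 (SE 0.75). It did not pass limma's test over all genes (unadjusted p = 0.0303, Benjamini-Hochberg adjusted p = 1.00), and adding the replicate number as a block did not change this (SE 0.39, unadjusted p = 0.00125, adjusted p = 0.234). With the block and array weights, which count variable libraries less, Chgb passed (difference -2.12, limma adjusted p = 0.0422). In that fit 43 of 11642 genes passed, 39 of them on the lactotrope side. Chgb passed in no other alternative. The difference kept its sign in all 21 alternatives run, from -2.34 to -1.22.

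Chga encodes chromogranin A, a general marker of endocrine cells and the precursor of several peptides. Its mm9 position is chromosome 12, 103793179 to 103803237, plus strand. The somatotrope libraries 1 to 3 held 31.7, 10.2 and 73.1 FPKM, and lactotropes 1 to 3 had 89.3, 19.0 and 28.0 FPKM. Lactotropes were higher in pairs 1 and 2 and somatotropes in pair 3, so Chga differed from Chgb in the direction of pair 3. Over the 6 libraries the levels of Chga and Chgb still rose and fell together (Pearson r = 0.782). The log2 difference was -0.31 (SE 0.76), with the highest somatotrope value in the library that also held the most Pomc, Lhb and Cga.

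Those 3 genes mark other hormone cells, and their sums moved between libraries. Markers of corticotropes and melanotropes (5 of 5 found) summed to 95.6, 1214 and 5773 FPKM in somatotropes 1 to 3, against 878, 554 and 425 FPKM in lactotropes 1 to 3. Pomc, the pro-opiomelanocortin gene, made up most of each sum, at 5758 FPKM in somatotrope 3. Other markers of that list were highest in lactotrope 1 instead, Tbx19 at 15.4 FPKM against 10.3 FPKM in somatotrope 3, Crhr1 at 6.33 against 4.69 FPKM, and Avpr1b at 2.50 FPKM against a listed 0. The melanotrope factor Pax7 was at most 0.127 FPKM and was listed at 0 in somatotrope 1, lactotrope 1 and lactotrope 3. Gonadotrope markers (5 of 5 found) summed to 1780 FPKM in somatotrope 3 and to 134 to 753 FPKM in the other 5 libraries. Cga made up most of each sum, at 1675 FPKM in somatotrope 3. Lhb, Fshb and Gnrhr were also highest there, but Nr5a1 was highest in lactotrope 1, at 1.75 FPKM against 1.57 FPKM in somatotrope 3. Gnrhr and Nr5a1 were listed at 0 in lactotrope 3. The part of such cells in the levels of Chga and the convertases was not tested.

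Scg2 encodes secretogranin II, the precursor of secretoneurin (mm9 chromosome 1, 79431244 to 79436665, minus strand). In somatotropes 1 to 3 it had 175, 60.7 and 206 FPKM, and lactotropes 1 to 3 had 400.5, 70.6 and 199 FPKM. The groups overlapped, and apart from lactotrope 1 the same-numbered libraries lay close together. The log2 difference was -0.45 (SE 0.73). Scg3, at mm9 chromosome 9, 75491173 to 75531863, minus strand, encodes secretogranin III, which tethers granin aggregates to the granule membrane. Somatotropes 1 to 3 had 72.1, 9.88 and 27.0 FPKM, and lactotropes 1 to 3 had 114, 15.5 and 38.4 FPKM. Lactotropes were higher in all 3 pairs by nearly the same factor, 1.58, 1.57 and 1.42, while each cell type spread over a far wider range. The log2 difference was -0.58, with an SE of 0.81 without the block and 0.26 with it (limma adjusted p = 1.00 and 0.465). Scg3 had 2 rows with nearly identical values in the table, of which the higher was used.

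The other granin-like proteins act on the convertases themselves. Scg5, at mm9 chromosome 2, 113616470 to 113669248, minus strand, encodes 7B2, the chaperone and inhibitor of the convertase PC2. The somatotrope libraries 1 to 3 held 485, 182 and 255 FPKM, and lactotropes 1 to 3 had 810.2, 138 and 295 FPKM. The direction differed between pairs, with lactotropes higher in pairs 1 and 3, and the log2 difference was -0.18 (SE 0.73). Pcsk1n, at mm9 chromosome X, 7496948 to 7501536, plus strand, encodes proSAAS, an inhibitor of the convertase PC1/3. In somatotropes 1 to 3 it had 26.6, 11.9 and 63.5 FPKM, and lactotropes 1 to 3 had 37.8, 18.8 and 72.2 FPKM. Lactotropes were higher in each pair, by 1.42, 1.58 and 1.137 times, and the groups overlapped widely. Its log2 difference was -0.43, with an SE of 0.70 without the block and 0.27 with it (limma adjusted p = 1.00 and 0.573).

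Of the convertases, Pcsk1 was present at moderate levels and Pcsk2 was scarce. Pcsk1, at mm9 chromosome 13, 75227435 to 75269946, plus strand, encodes PC1/3. Somatotropes 1 to 3 had 46.5, 2.49 and 14.1 FPKM, and lactotropes 1 to 3 had 43.5, 2.45 and 3.68 FPKM. As deposited, both replicate 1 libraries were far above the rest, at 5.61 times the mean of the other somatotropes and 14.2 times the mean of the other lactotropes. Somatotropes were higher in all 3 pairs, but by 1.07 and 1.02 times in pairs 1 and 2 and by 3.82 times in pair 3. The log2 difference of 0.60 (SE 1.04) therefore came mostly from pair 3, and it was -0.30 without somatotrope 1.

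Pcsk2, at mm9 chromosome 2, 143371869 to 143642018, plus strand, encodes PC2, the convertase of melanotropes and many neuroendocrine cells. The somatotrope libraries 1 to 3 held 0.663, 0.641 and 4.46 FPKM, and lactotropes 1 to 3 had 1.73, 0.331 and 1.66 FPKM. The highest value was again in somatotrope 3, the library with 5758 FPKM of Pomc. The log2 difference was 0.21 (SE 0.72), and it was -0.37 without that library. At these levels the added 1 FPKM compresses the differences. In both replicate 1 libraries, whose low values stood on whole fragments and where Pcsk1 was far above the rest, Pcsk2 was 70.1 times (somatotrope) and 25.1 times (lactotrope) less abundant than Pcsk1 per unit length. In the other libraries that gap was smaller, 3.89 and 3.16 times in somatotropes 2 and 3 and 7.42 and 2.22 times in lactotropes 2 and 3.

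Cpe encodes carboxypeptidase E, which trims basic residues and is also an abundant granule protein. Its mm9 position is chromosome 8, 67071349 to 67171837, minus strand. In somatotropes 1 to 3 it had 295, 274 and 200.3 FPKM, and lactotropes 1 to 3 had 424, 112 and 119 FPKM. It was the steadiest of the 10 genes over the 6 libraries, with the highest value 3.80 times the lowest. Somatotropes were higher in pairs 2 and 3, by 2.45 and 1.69 times, and lactotropes in pair 1, by 1.44 times. The log2 difference was 0.50 (SE 0.65), positive in all 21 alternatives and between 0.17 and 1.13.

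Pam, at mm9 chromosome 1, 99717671 to 99992209, minus strand, encodes peptidylglycine alpha-amidating monooxygenase, the copper-dependent enzyme that amidates peptide ends. Somatotropes 1 to 3 had 59.5, 8.62 and 7.65 FPKM, and lactotropes 1 to 3 had 70.9, 6.36 and 8.01 FPKM. As deposited, replicate 1 stood apart in both cell types, 7.32 and 9.87 times above the mean of the other 2 libraries, and the cell types lay close together within each pair. The log2 difference was 0.03 (SE 0.93) and turned sign in 8 of 21 alternatives.

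Of the family as a whole, 0 of the 10 genes passed limma's test over all genes, with or without the block, against 0.0% of the 11642 tested genes. One member, Chgb, had an unadjusted p under 0.05 on the lactotrope side, as had 0.455% of tested genes. With the block and values as deposited it was again Chgb alone, where 3.75% of tested genes had such a p on the lactotrope side and 7.17% on the somatotrope side. With the block and median-ratio scaling, 4 members had such a p, Chgb, Scg2, Scg3 and Pcsk1n, all on the lactotrope side. So had 556 of 11223 tested genes, and limma's adjusted p of the 4 ran from 0.114 to 0.518. With the block and array weights these were Chgb and Scg3, beside 579 of 11642 tested genes on that side. For none of the 10 genes did the levels of the cell types stand fully apart, which held for 1.15% of tested genes with lactotropes higher and 2.51% with somatotropes higher. As deposited, the 6 granin and granin-like genes had differences on the lactotrope side (median -0.44) and the 4 enzymes on the somatotrope side (median 0.36), but Pam was on the lactotrope side after median-ratio scaling (-0.15), after quantile normalization (-0.15) and when each library was rescaled without Gh and Prl (-0.02). This split changed when 1 library was left out, in fits without the block, which leave the replicate numbers unbalanced. With replicates 2 and 3 only, balanced but added after the data were seen, Chga (0.26) and Scg5 (0.10) turned to the somatotrope side. Chgb (-1.40), Scg2 (-0.08), Scg3 (-0.55) and Pcsk1n (-0.40) did not. Without somatotrope 2, 5 of the 6 granin and granin-like genes turned to the somatotrope side (Chga 0.40, Scg2 0.09, Scg3 0.10, Scg5 0.13, Pcsk1n 0.14), without lactotrope 1 Chga (0.32), Scg2 (0.13), Scg3 (0.14) and Scg5 (0.49) did, and Pcsk1 was at -0.30 without somatotrope 1 and at -0.09 without lactotrope 2. The median over the 10 genes was -0.25, against 0.18 over all tested genes. Median-ratio scaling moved these medians to -0.44 and 0.04. By pair the members' median was -0.69, -0.10 and -0.01, against 0.003, 0.118 and 0.363 for all genes. The sign of the members' median also changed in fits with 1 library left out: it was 0.27 without somatotrope 2 and 0.36 without lactotrope 1. Chgb, Scg3 and Pcsk1n were higher in lactotropes in all 3 pairs, as were 11.2% of tested genes, and Pcsk1 was higher in somatotropes in all 3, as were 22.9%.

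**Figure D2:**
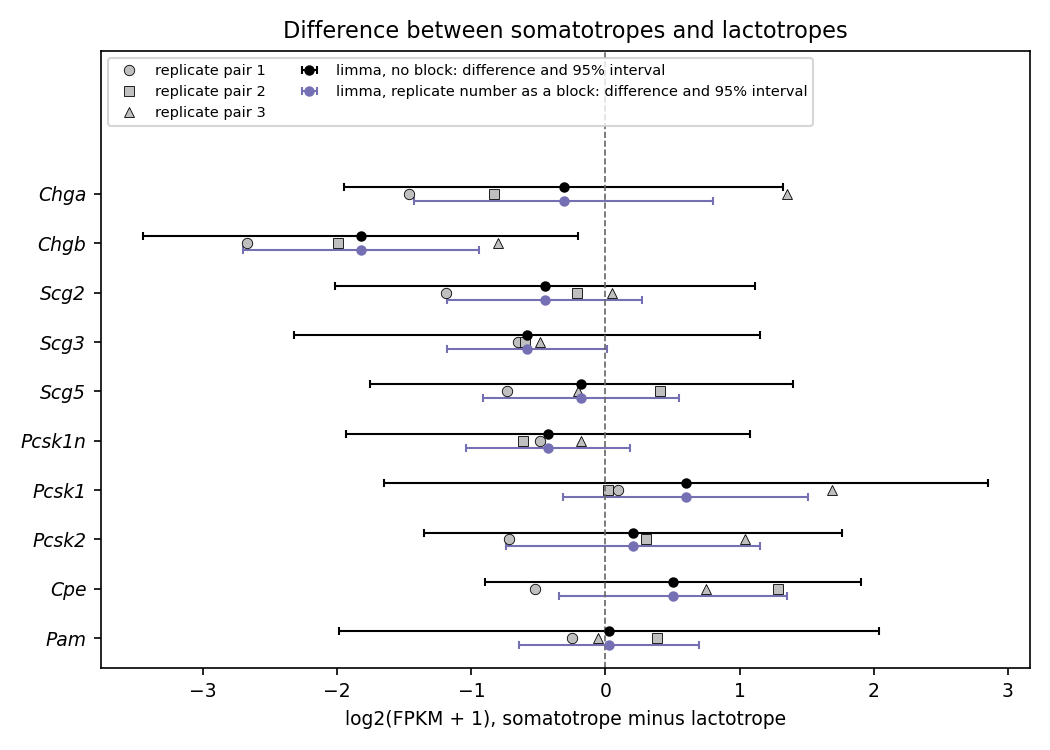
Difference in log2(FPKM + 1), somatotrope minus lactotrope, for each gene, with limma's estimate and 95% interval without a block (black) and with the replicate number as a block (purple), and the 3 replicate pairs in grey. Chgb lies at -1.82 with every pair below 0, and the grey symbols of Scg3 lie close together near -0.58.

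Much of the spread followed the replicate number. Replicate 2 was the lowest library of both cell types for 8 of the 10 genes, all but Cpe and Pam, whereas 14.1% of all tested genes had that pattern. Replicate 2 also held the highest summed leukocyte markers of each cell type, mostly Cd74 (4897 FPKM in somatotrope 2 and 9644 FPKM in lactotrope 2). Among somatotropes, Lyz2 was instead higher in replicate 3 (228 FPKM) than in replicate 2 (195 FPKM). Every other marker of that list was highest in replicate 2 of both cell types. The part of leukocytes in these levels was not tested. Replicate 1 was the highest library of both cell types for Scg3, Scg5, Pcsk1, Cpe and Pam, 5 of the 10 genes, against 63.1% of all tested genes.

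Plain ratios of the FPKM of 2 genes in the same library do not depend on how that library was scaled, whereas the tests below, on log2 ratios of FPKM + 1, do so through the added 1, most of all for Pcsk2. Chgb exceeded Chga 7.01, 7.34 and 4.201 times in somatotropes 1 to 3, against 15.98, 15.9 and 19.2 times in lactotropes 1 to 3. The groups did not overlap, which held for 5.43% of all ratios among the 9673 tested genes above 0 FPKM in every library, and for 38.3% of those genes when Chgb was divided by each of the others with lactotropes higher. The lactotropes were close to each other although their Chgb levels spanned a wide range. On the log2 scale of FPKM + 1 this ratio was 2.53 ± 0.41 (SD, n = 3) in somatotropes and 4.04 ± 0.15 in lactotropes. The difference of -1.51 gave p = 0.1 in a two-sided exact permutation test, the smallest that 3 against 3 libraries allow, and p = 0.5 after Benjamini-Hochberg adjustment over the 5 ratios compared.

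The other 4 ratios overlapped between the cell types. Scg5, the 7B2 transcript, exceeded its partner Pcsk2 by 732, 284 and 57.2 times in somatotropes 1 to 3, against by 467, 416 and 178 times in lactotropes 1 to 3. The ratio of Pcsk1n, the inhibitor transcript, to Pcsk1 was 0.573, 4.78 and 4.51 for somatotropes 1 to 3, while lactotropes 1 to 3 had 0.868, 7.67 and 19.6. The convertase thus exceeded its inhibitor only in replicate 1 of both cell types, and the ratio was larger in lactotropes in each pair. Cpe exceeded Pam 4.95, 31.8 and 26.2 times in somatotropes 1 to 3, against 5.98, 17.6 and 14.8 times in lactotropes 1 to 3. Exact permutation p-values of these 4 ratios, with that of Pcsk2 to Pcsk1, ran from 0.5 to 0.8, and the log2 differences from -1.03 to 0.48.

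All 45 ratios among the 10 genes were then examined, a step chosen after the values were seen. In 6 of them, 13.3%, the 3 somatotrope and 3 lactotrope libraries did not overlap, against 5.43% of all ratios among tested genes above 0 FPKM in every library. Each of the 6 had Chgb as a partner, which leaves 0 among the ratios without Chgb. They are 6 of the 9 ratios with Chgb, all with lactotropes higher for Chgb over its partner. Chgb over any other such tested gene gave this for 38.3% of the genes. The partners were Chga, Scg2, Scg3, Scg5, Pcsk1 and Cpe. The Chgb to Scg2 ratio was 1.27, 1.24 and 1.49 for somatotropes 1 to 3, while lactotropes 1 to 3 had 3.56, 4.28 and 2.70. To Scg5 it stood at 0.458, 0.412 and 1.21 in somatotropes and at 1.76, 2.20 and 1.82 in lactotropes. To Cpe it stood at 0.755, 0.274 and 1.53 in somatotropes and at 3.36, 2.71 and 4.52 in lactotropes. The margin was narrowest for Pcsk1 and Scg3, with 11.4 in somatotrope 3 and 12.5 in lactotrope 1 for Scg3.

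**Figure D3:**
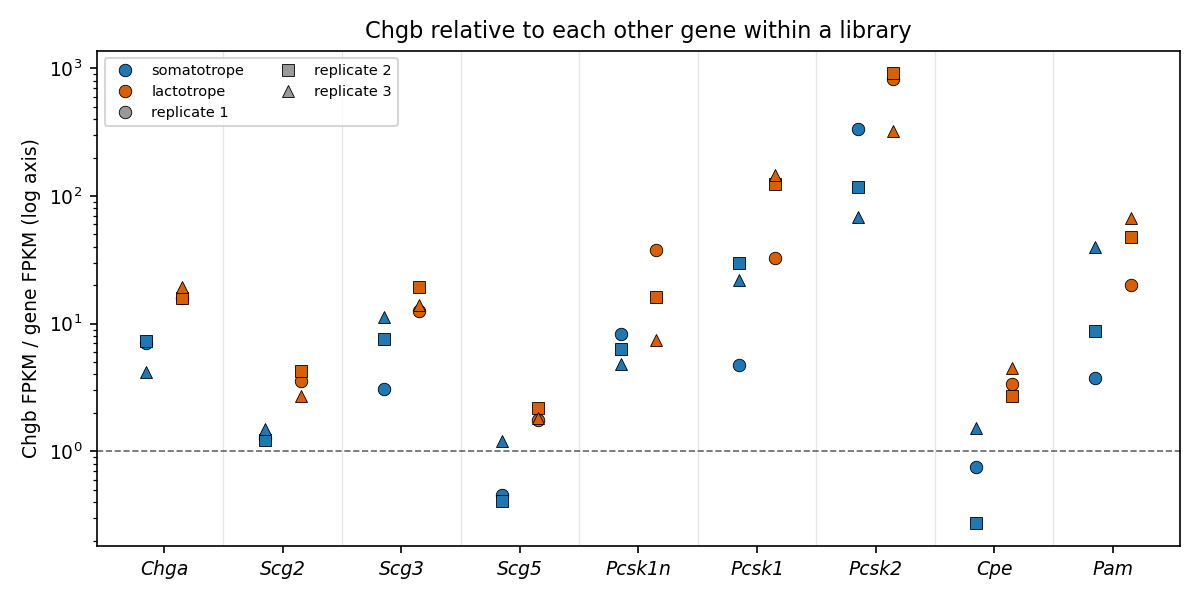
FPKM of Chgb divided by the FPKM of each other gene in the same library, on a log axis, somatotropes in blue and lactotropes in orange, symbol shapes giving the replicate number and a dashed line marking equal levels. The lactotrope libraries lie above all somatotrope libraries for Chga, Scg2, Scg3, Scg5, Pcsk1 and Cpe, and the groups overlap for Pcsk1n, Pcsk2 and Pam.

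The share of each gene in the FPKM sum of the 10 genes, also chosen after the values were seen, gives a further view free of library scaling. Chgb made up 15.7%, 11.8% and 26.5% of that sum in somatotropes 1 to 3, against 41.7%, 44.15% and 41.3% in lactotropes 1 to 3. It was thus the largest single component of the family in every lactotrope library and in somatotrope 3, with Scg5 first in somatotrope 1 and Cpe first in somatotrope 2. Cpe made up 20.8%, 43.1% and 17.3% in somatotropes 1 to 3, against 12.4%, 16.3% and 9.12% in lactotropes 1 to 3. These 2 shares did not overlap between the cell types, in opposite directions, and the other 8 did. When all tested genes were set against the same sum, 0.301% lay higher in all 3 lactotropes and 6.75% higher in all 3 somatotropes. Each share gave p = 0.1 in a two-sided exact permutation test (adjusted p = 0.5 over 10 shares). The 2 are not independent, because shares sum to a fixed total. Among the ratios of Cpe to single members, only 1 did not overlap, the one to Chgb. The Cpe share is therefore no result apart from that of Chgb.

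**Figure D4:**
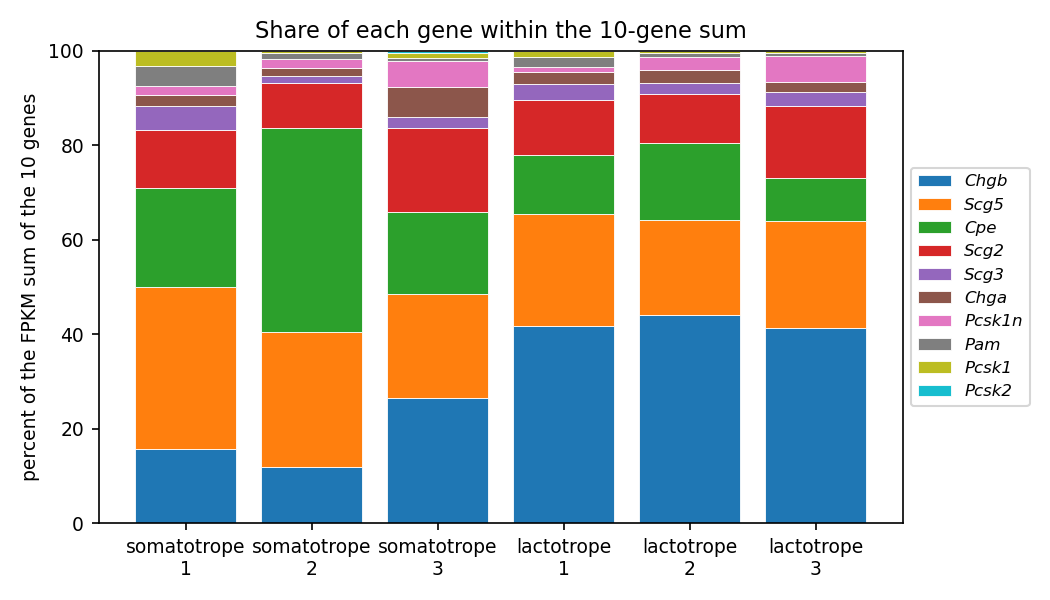
Stacked bars of each gene's percent of the FPKM sum of the 10 genes, 1 bar per library. Chgb (bottom segment) takes 41.3% to 44.15% in the lactotropes and 11.8% to 26.5% in the somatotropes, and Cpe takes 9.12% to 16.3% against 17.3% to 43.1%.

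Promoters of 4 members are shown because those of Chgb, Scg2 and Pcsk1 carry the same full motif and that of Chga its core. The cyclic AMP response element, the site bound by CREB family factors, was searched as TGACGTCA on both strands in the 250 bases before each start site in RefSeq's promoter table (GRCm38.p6), and its core as TGACG, which overlaps the full element. Of the 9 members in that table, 3 held the full element (Chgb, Scg2 and Pcsk1), against 1.55% of 32851 windows. The core was present in Chga, Chgb, Scg2, Scg3, Scg5, Pcsk1 and Pcsk2, 7 of 9, against 17.8% of windows. The element began 72 bases before the start site in Chgb, 68 in Scg2 and 78 in Pcsk1, and the core began 44 bases before it in Chga. Pcsk1 held another core, beginning 50 bases before its start site. Stretches of 60 bases are printed 5′ to 3′ on the gene's strand, with every match to the element or its core in capitals.
Chgb, chr2:132781546-132781605, plus strand: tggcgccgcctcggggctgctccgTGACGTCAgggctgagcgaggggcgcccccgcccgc
Scg2, chr1:79440059-79440118, minus strand: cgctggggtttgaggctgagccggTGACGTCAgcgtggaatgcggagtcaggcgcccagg
Pcsk1, chr13:75089755-75089814, plus strand: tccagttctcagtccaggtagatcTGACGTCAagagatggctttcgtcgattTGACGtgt
Chga, chr12:102554873-102554932, plus strand: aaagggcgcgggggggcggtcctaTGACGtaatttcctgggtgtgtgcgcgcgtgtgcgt
These matches describe the sequence only. Replicate 2 was the lowest library of both cell types for all 3 genes with the full element, as for 8 of the 10 members. The direction within pairs differed as deposited: Chgb was higher in lactotropes in all 3 pairs and Pcsk1 in somatotropes in all 3. Scg2 had pairs in both directions, with pair 3 at 206 FPKM in somatotropes and 199 FPKM in lactotropes. Relative to the FPKM sum without Gh and Prl, Scg2 was higher in lactotropes in all 3 pairs, and Chgb and Pcsk1 kept their directions.

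How alike the 10 genes were over the 6 libraries is given as a description, since same-numbered libraries deviated together and the members share every library. The pair with the highest Pearson correlation was Scg3 and Scg5 (r = 0.951) and the pair with the lowest was Pcsk1n and Cpe (r = -0.201). With the mean of the 10 standardised genes, r ran from 0.559 for Pcsk2 to 0.977 for Scg2. Each member is part of that mean, which raises its r, unlike for genes outside the family. Outside the family, the tested genes whose mean was 10 FPKM or more that were most like this mean were Pim2, a serine/threonine kinase (r = 0.997), Ckmt1, a mitochondrial creatine kinase (r = 0.990), Cct3, a chaperonin subunit (r = 0.990), Ubl5, a ubiquitin-like protein (r = 0.980), and Nenf, the secreted protein neudesin (r = 0.972).

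Other enzymes of precursor cleavage and trimming were read from a list of 20 genes, of which 15 were tested. None passed limma's test (0 of 15, with or without the block). Without the block 0 of the 15 had an unadjusted p under 0.05. With it 3 had, all on the somatotrope side, where 7.17% of tested genes had such a p. They were Cpxm2 (limma adjusted p = 0.334), Cyb561 (limma adjusted p = 0.342) and Ece1 (limma adjusted p = 0.397). Of the 15, 9 differences were on the somatotrope side and 6 on the lactotrope side, and the median was 0.13. Ctsl, the lysosomal protease cathepsin L, was the most abundant, at 94.98, 24.1 and 51.6 FPKM in somatotropes 1 to 3, against 93.2, 48.7 and 64.96 FPKM in lactotropes 1 to 3. Ece1, endothelin-converting enzyme 1, was at 39.6, 64.02 and 35.6 FPKM over somatotropes 1 to 3, and lactotropes 1 to 3 had 31.1, 41.7 and 6.96 FPKM. Cyb561, the granule cytochrome that supplies electrons to Pam's enzyme, had the largest difference of the list, 1.55 (SE 0.80, limma adjusted p = 1.00). The somatotrope libraries 1 to 3 held 43.9, 49.7 and 24.5 FPKM, and lactotropes 1 to 3 had 41.4, 15.3 and 2.34 FPKM, higher in somatotropes in all 3 pairs. Pcsk6, the convertase PACE4, stood at 60.5, 2.61 and 8.61 FPKM in somatotropes and 68.3, 5.89 and 14.6 FPKM in lactotropes, with replicate 1 far above the rest, as for Pcsk1 and Pam. Mbtps1, the site-1 protease, ran from 4.196 to 45.5 FPKM, and Cpxm2, a carboxypeptidase-like protein, from 5.73 to 48.4 FPKM.

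Other granule proteins and factors of granule formation formed a list of 19 genes, of which 17 were tested. None of the 17 passed limma's test and 0 had an unadjusted p under 0.05, in both cases with or without the block. There were 7 differences on the somatotrope side and 10 on the lactotrope side, with a median of -0.04. Resp18, a granule protein of endocrine cells, was at 109.8, 59.6 and 206 FPKM in somatotropes 1 to 3, against 188, 47.2 and 163 FPKM in lactotropes 1 to 3, with replicate 2 lowest in both, as for the granins. Nucb2, the nesfatin precursor, was at 174, 30.7 and 30.6 FPKM in somatotropes and 148, 23.1 and 63.1 FPKM in lactotropes. Vps41, a trafficking subunit, ran from 13.7 to 43.2 FPKM, Hid1, a granule maturation factor, from 5.38 to 40.8 FPKM, Ptprn, a granule membrane protein also called IA-2, from 3.98 to 41.98 FPKM, and Ica1, a BAR domain protein, from 4.91 to 35.03 FPKM. Replicate 1 was the highest library of both cell types for 16 of these 17 genes, all but Resp18, against 63.1% of all tested genes.

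**Figure D5:**
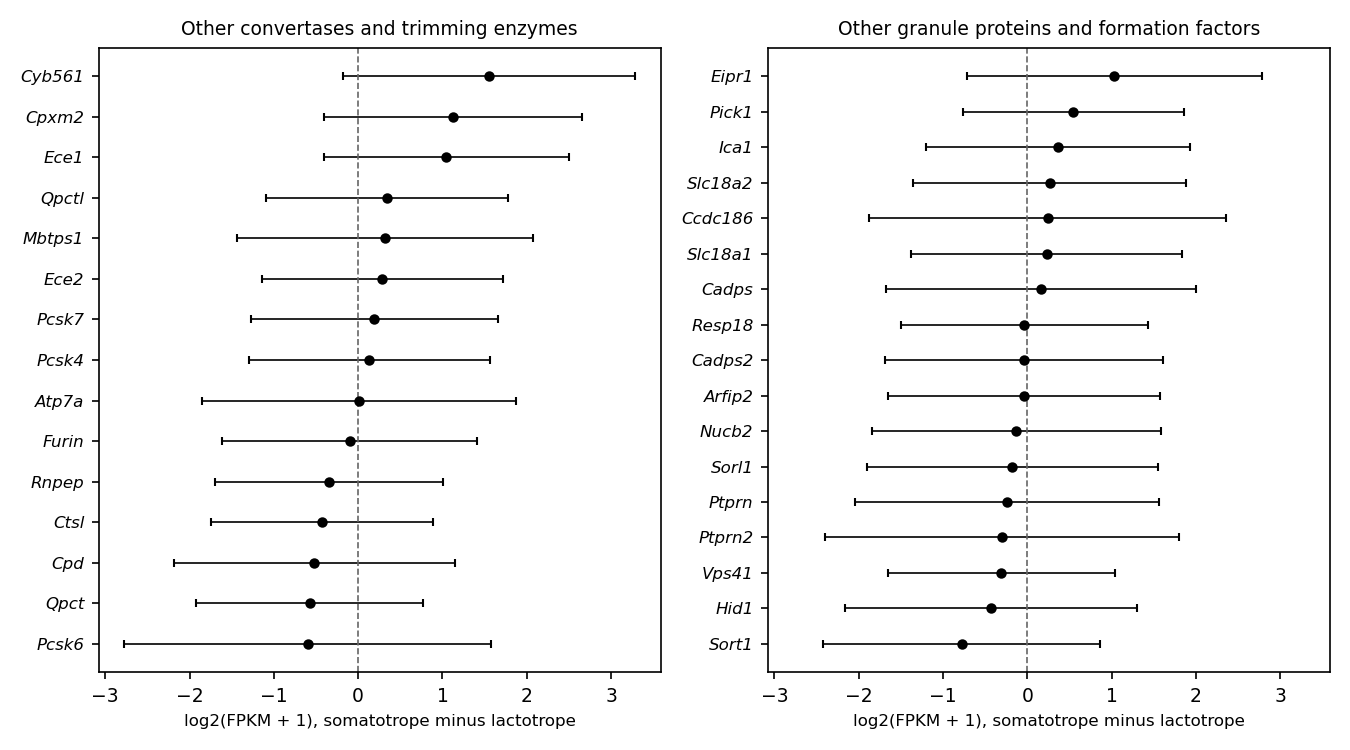
Difference in log2(FPKM + 1), somatotrope minus lactotrope, with limma's 95% interval without a block, for 15 other convertases and trimming enzymes (left) and 17 other granule proteins and formation factors (right). All intervals include 0, and Cyb561 has the largest difference, 1.55.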

How the data were processed

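RNA was sequenced from 3 somatotrope and 3 lactotrope libraries. Cells were sorted into Trizol LS, with amplification of their RNA by a NuGen Ovation V2 kit, per the labels' protocols. The authors deposited 1 table of FPKM values for 30399 transcript rows. TopHat, edgeR, bcl2fastq 2.17.1.14 and the build mm9 are named in the submitters' processing notes. The sources used here do not say how fragments were counted. FPKM values are not counts, so no count test was run.

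The 889 rows without a symbol were left out, and each gene took its row with the highest mean. Values were tested as log2(FPKM + 1), which understates changes of low genes, for genes whose mean was 1 FPKM or more, with limma 3.58.1 in R 4.3.3 (intensity trend, no block, Benjamini-Hochberg adjustment over all 11642 genes at 0.05). Depth was sought by testing whether low values of single-exon genes came to whole fragments, within 0.1 (100.0% of 525 values in somatotrope 1 and 99.4% of 311 in lactotrope 1, against at most 58.8% elsewhere). Ratios and shares were tested with exact permutation tests in scipy 1.17.1. The code was tested on simulated data. Same-numbered libraries deviated together from their group means (replicate 1 with a correlation over genes of 0.763, replicate 2 of 0.613, replicate 3 of 0.341), so the numbers were taken to pair the samples; this rests on the titles and that check, and no label states a shared source. The p-values measure the spread between these libraries.

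The 10 members and the other lists were chosen with earlier results of these data known. Genes named are the members, up to 6 per other list by mean FPKM and the 5 most like the members' mean. Hid1 was matched through its older symbol C630004H02Rik. Marker lists for thyrotropes (summed level 6.37 to 90.9 FPKM), stem and folliculostellate cells (9.89 to 154 FPKM), endothelial cells (0 to 3.27 FPKM), fibroblasts and mural cells (21.7 to 71.4 FPKM) and pituicytes (0.01 to 3.84 FPKM) were also read. Alternatives were other pseudocounts, filters, scalings, row choices, weights, the block and leaving out libraries.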

Additional observations from a re-analysis of the deposited data

How the results depend on the processing

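With the replicate block, limma called 0 of 11642 genes and 0 of the 10 members, and the median difference of the members stayed at -0.25; with the block and array weights it called 43 genes, of which 1 was a member (Chgb), and with array weights alone, whose estimation stopped before it fully converged, 9 genes and a members' median of 0.36. The fits with 1 library left out had no block, so their replicate numbers were unbalanced. They gave 0 to 3 called genes, 0 called members and a members' median from -0.78 (without lactotrope 2) to 0.36 (without lactotrope 1). With replicates 2 and 3 only, added after the data were seen, that median was 0.13. The cause of these shifts was not tested. Chgb and Cpe kept their sign under every alternative. Leaving out 1 library gave a range of -0.96 to 0.40 for Chga, -1.11 to 0.13 for Scg2, -1.27 to 0.14 for Scg3, -0.79 to 0.49 for Scg5, -1.02 to 0.14 for Pcsk1n, -0.30 to 1.75 for Pcsk1, -0.37 to 0.50 for Pcsk2 and -0.88 to 1.07 for Pam. The same unconverged weights turned Chga (0.13), Scg2 (0.32), Scg5 (0.51) and Pcsk1n (0.12), and array weights with the block turned Pcsk2 (-0.03). Replicates 2 and 3 only turned Chga (0.26) and Scg5 (0.10). Pam was also negative with a pseudocount of 5 (-0.0045), median-ratio scaling with or without the block (-0.15), quantile normalization (-0.15) and rescaling without Gh and Prl (-0.02). With 1 library left out, the Pcsk2 to Pcsk1 log2 ratio differed by -1.37 to 0.79 and the Scg5 to Pcsk2 ratio by -1.06 to 0.26; the latter was 0.04 with replicates 1 and 2 only. The Chgb to Chga difference ranged from -1.63 to -1.28 when 1 library was left out, and the pairing, as a mean of within-pair differences (-1.51), gave an exact sign-flip p = 0.25, the smallest that 3 pairs allow. With a mean of at least 5 FPKM required, and with replicates 1 and 2 only, Pcsk2 fell under the filter. Depth is unknown for 4 libraries, which limits what can be said of Pcsk2.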
